A study of Mus musculus with 6 samples.

Results

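Clock output factors were examined in mouse liver as a set of 7 listed genes, of the 20673 genes in the deposited tables: Dbp, Tef, Hlf, Nfil3, Ciart, Bhlhe40 and Bhlhe41. They were found by gene symbol, and all 7 are in the tables. Of these, 5 had enough reads to be tested between diets, and Ciart and Bhlhe41 did not. The set is usually called after the PAR-bZIP proteins, but only Dbp, Tef and Hlf encode such proteins. Nfil3 encodes a leucine zipper protein without the PAR domain, and Ciart, Bhlhe40 and Bhlhe41 encode repressors of other families.

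Livers came from young adult C57BL/6J mice, an inbred strain with no transgene or deletion here. RD mice received regular chow and are labelled as having no treatment, and HCD mice received a high-cholesterol diet for 3 days, which holds cocoa butter, cholesterol and the bile salt sodium cholate. Each diet has 3 livers with 1 RNA sequencing library each, and both sexes were used in the study. The sources used here give neither the hour at which each liver was taken nor the sex of each mouse. The labels number the livers but do not say that each came from a separate mouse, so the p-values measure the spread between these samples.

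In the liver clock, CLOCK and BMAL1 (the protein of Arntl) bind E-box sequences and switch on a set of genes that includes Dbp. DBP, TEF and HLF share a region rich in proline and acidic residues, the PAR domain, and activate genes that carry a D-box, among them enzymes of bile acid and drug metabolism. NFIL3 (E4BP4) represses through the same D-box. CIART (CHRONO) and the basic helix-loop-helix proteins DEC1 (Bhlhe40) and DEC2 (Bhlhe41) repress E-box activity. Dbp RNA is known to swing widely over the day in liver, while Tef and Hlf swing less.

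Libraries held 13771630 to 23129576 counts on genes, and 3 counts are 0.130 to 0.218 CPM (counts scaled to a common library total). This floor is without the TMM factors that scale the levels below. HCD replicate 1 stands apart by sex: it has 5032 counts of Xist, which is made in female cells, and 0 counts over 4 Y-linked genes, whereas the other 5 libraries have 0 Xist counts and 1075 to 2666 Y-linked counts. Values without this library are given for each tested member and for the other genes named below whose call it changed. Hepatocyte markers summed to 95300 to 128634 CPM with RD and 102177 to 144280 with HCD, so the defining markers of the labelled tissue were present. All 9 Kupffer cell (liver macrophage) markers had higher fitted values with HCD. They summed to 163 to 265 CPM with RD and 227 to 494 with HCD. None passed edgeR's test, 5 were higher at an unadjusted p under 0.05, and DESeq2 called 4 higher. Of all genes tested, 11.1% were higher at that unadjusted p in edgeR, and DESeq2 called 4.13% higher. The median log2 fold change of the 9, HCD over RD, was 0.87, and 0.63 without HCD replicate 1. Stellate cell markers summed to 335 to 376 and 353 to 613 CPM, sinusoidal endothelial markers to 114 to 203 and 170 to 256, cholangiocyte markers to 37.4 to 91.9 and 64.5 to 98.1, and leukocyte markers to 6.54 to 11.7 and 9.93 to 15.8. Red cell markers summed to 138 to 239 and 177 to 468 CPM. Of these 5, edgeR called 2 higher and DESeq2 3, beside 1.95% and 4.13% of all genes tested. DESeq2 also called 1 sinusoidal endothelial and 2 hepatocyte markers higher and 1 hepatocyte marker lower. Over all genes it called 4.13% higher and 3.34% lower. It called no stellate cell, cholangiocyte or leukocyte marker. In whole liver, fewer cells of a type and less RNA per cell cannot be told apart, and the part of these cell types in the results was not tested.

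Promoters of the members differ in the clock elements they hold, so those with the canonical E-box, CACGTG, are shown. Windows from 250 bases before to 50 after the start of a gene (RefSeq, GRCm38.p6) were found for 6 of the 7 members, with Bhlhe40 missing. They gave 7 windows, since Tef has 1 at each of 2 starts. The sequences below run 5′ to 3′ on the strand of the gene and end at or before the base next to its start, with E-boxes in capitals.
Ciart, chr3:95882229-95882478, minus strand: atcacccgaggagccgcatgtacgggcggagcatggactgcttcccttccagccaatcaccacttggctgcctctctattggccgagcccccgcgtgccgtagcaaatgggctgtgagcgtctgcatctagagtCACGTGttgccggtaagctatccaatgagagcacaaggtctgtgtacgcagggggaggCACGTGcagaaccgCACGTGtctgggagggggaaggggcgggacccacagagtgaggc
Bhlhe41, chr6:145865541-145865600, minus strand: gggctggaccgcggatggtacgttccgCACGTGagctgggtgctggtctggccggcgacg
Tef, chr15:81802519-81802578, plus strand: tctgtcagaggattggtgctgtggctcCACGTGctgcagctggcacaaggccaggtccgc
Tef, chr15:81811249-81811308, plus strand: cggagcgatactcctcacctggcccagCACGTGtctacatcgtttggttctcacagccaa

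The Ciart window holds 3 E-boxes, which begin 116, 58 and 44 bases before its start. Of 32851 mouse promoter windows, 7.15% hold at least 1 CACGTG and 0.0883% hold 3 or more. Bhlhe41 has 1 E-box, 153 bases before its start, and the Tef windows have 1 each, at 127 and 138 bases. The windows of Dbp, Hlf and Nfil3 hold no CACGTG. The variant CACGTT (in 4.68% of windows) and the D-boxes TTATGTAA and TTACGTAA (in 1.06%) were in none of the members' windows. Nfil3 has 1 match to TAGGTCA, the element read by ROR and REV-ERB receptors, 12 bases before its start and on the opposite strand, as do 2.61% of windows. All motifs were sought on both strands, and CACGTG reads the same on either. These matches describe the letters in the windows and are not binding sites measured in these livers.

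Nfil3 had the most RNA per gene length and Bhlhe41 the least. Levels were compared between genes in FPKM, the deposited values of fragments divided by gene length and library total. The median FPKM over the 6 livers was 45.9 for Nfil3, 18.8 for Bhlhe40, 8.68 for Tef, 8.01 for Hlf, 0.768 for Dbp, 0.155 for Ciart and 0.0539 for Bhlhe41. Nfil3 was above Bhlhe40, and Hlf above Dbp, in 6 of 6 livers, and neither pair had overlapping ranges. Bhlhe40 was above Tef and Tef above Hlf in 5 of 6 livers each, and both pairs had overlapping ranges. Dbp was above Ciart in 6 of 6 livers although their ranges overlap, since the lowest Dbp values are those of HCD livers and the highest Ciart value that of an RD liver. The order of Ciart and Bhlhe41 held in 4 of 6 livers only.

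**Figure D1:**
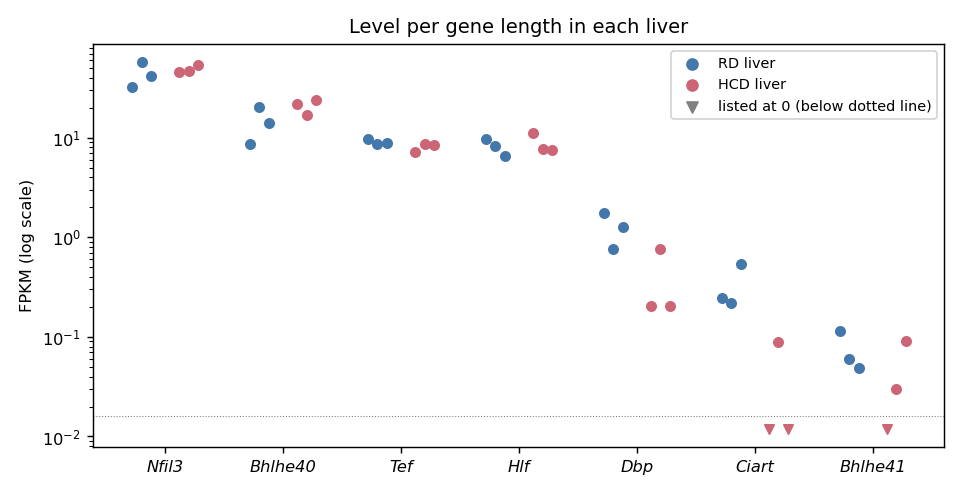
Level per gene length of the 7 members, in FPKM on a log axis, with 1 point per liver in blue for RD and red for HCD; triangles below the dotted line mark livers listed at 0. Nfil3, Bhlhe40, Tef and Hlf lie above Dbp in every liver, with Nfil3 highest (median 45.9 FPKM) and Ciart and Bhlhe41 lowest (medians 0.155 and 0.0539).

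None of the 5 tested members was called between HCD and RD at an adjusted p under 0.05. Over all 13105 genes tested, 3.27% were called. The fitted log2 fold change between diets, HCD over RD, was negative for Dbp and Tef and positive for Hlf, Nfil3 and Bhlhe40, and its median was 0.092 over these 5 genes and 0.0074 over all genes tested. Without HCD replicate 1 the median of the 5 was -0.097, with 2 positive and 3 negative. Dbp was the only one of the 5 with an unadjusted p under 0.05, which 20.9% of all genes tested reached (9.81% of them lower and 11.1% higher with HCD, as shares of all genes tested). No member reached an adjusted p under 0.1 either, which 7.48% of all genes tested did (4.3% higher and 3.17% lower). Dbp was also the only tested member whose diets did not overlap in CPM, as was the case for 27.6% of all genes tested. No tool or setting tried, DESeq2 included, called a member.

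**Figure D2:**
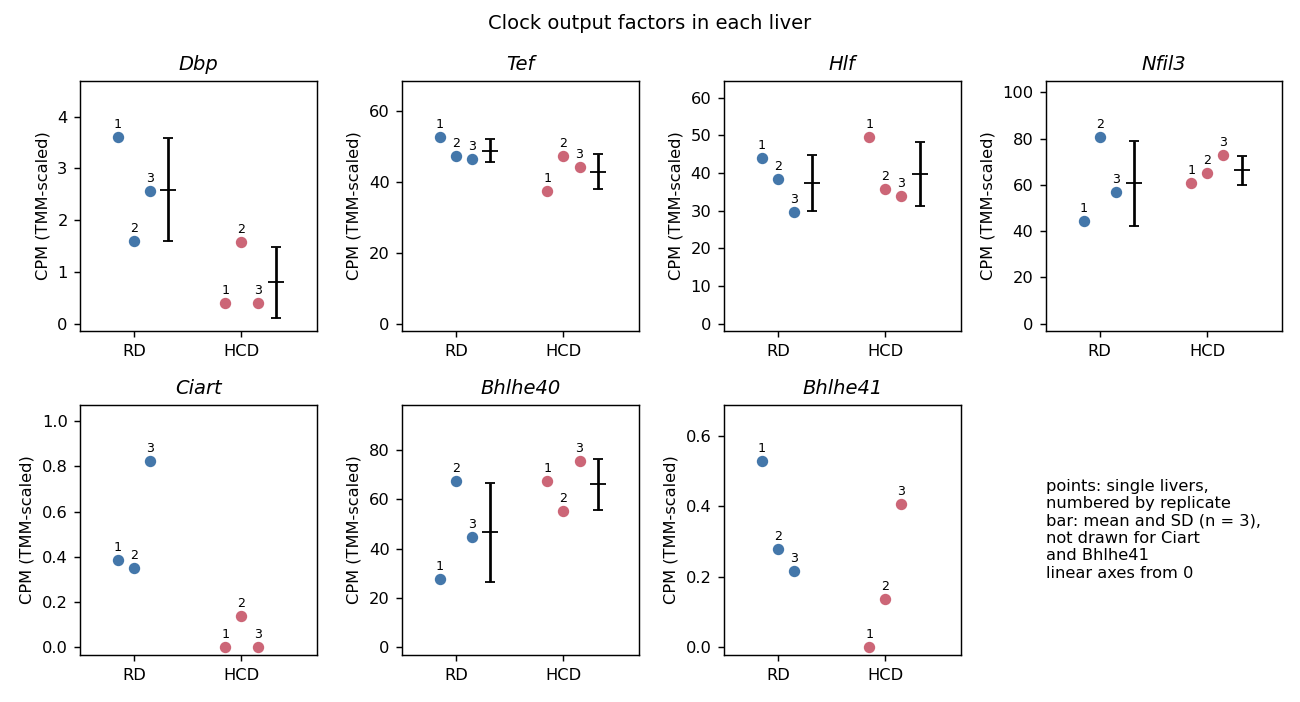
TMM-scaled CPM of the 7 members in each liver (points, numbered by replicate), on linear axes with a scale of its own for each gene; bars give the mean and SD of 3 livers for the 5 tested members. Dbp lies at 1.60 to 3.60 CPM with RD and 0.404 to 1.59 with HCD, whereas the diets overlap in Tef, Hlf, Nfil3 and Bhlhe40.

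Dbp (ENSMUSG00000059824, chr7:45705088-45710203 of GRCm38, plus strand) encodes the PAR-bZIP activator with the strongest known daily rhythm. In replicate order it had 75, 23 and 59 counts in the RD livers and 8, 23 and 5 counts in the HCD livers. Scaled with TMM factors, its level was 3.60, 1.60 and 2.56 CPM with RD and 0.404, 1.59 and 0.405 CPM with HCD. The lowest RD liver and the highest HCD liver, both replicate 2, were nearly equal, and the other HCD livers were far below every RD liver. RD livers averaged 2.59 ± 1.00 CPM (SD, n = 3) and HCD livers 0.798 ± 0.682 (SD, n = 3). The log2 fold change was -1.70 with a standard error of 0.64 and a 95% interval of -3.17 to -0.24, and its adjusted p = 0.182 (edgeR's quasi-likelihood test, Benjamini-Hochberg, unadjusted p = 0.0274). An exact two-sided permutation test gave p = 0.1, the smallest that 3 livers against 3 allow.

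The size of the Dbp difference depended on single livers. Without HCD replicate 2 the log2 fold change was -2.67 (adjusted p = 0.0721, edgeR), and without HCD replicate 1, the library with Xist, it was -1.36 (adjusted p = 0.313). Without RD replicate 1 it was -1.39, with an adjusted p = 0.464. It was negative in every one of these subsets. Sphk2, a sphingosine kinase gene on the opposite strand, shares 539 of the 2993 exon bases of Dbp and had 522 to 1421 counts in a liver. No source used here gives the strand setting of the counting, so reads in the shared bases cannot be assigned to either gene.

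**Figure D3:**
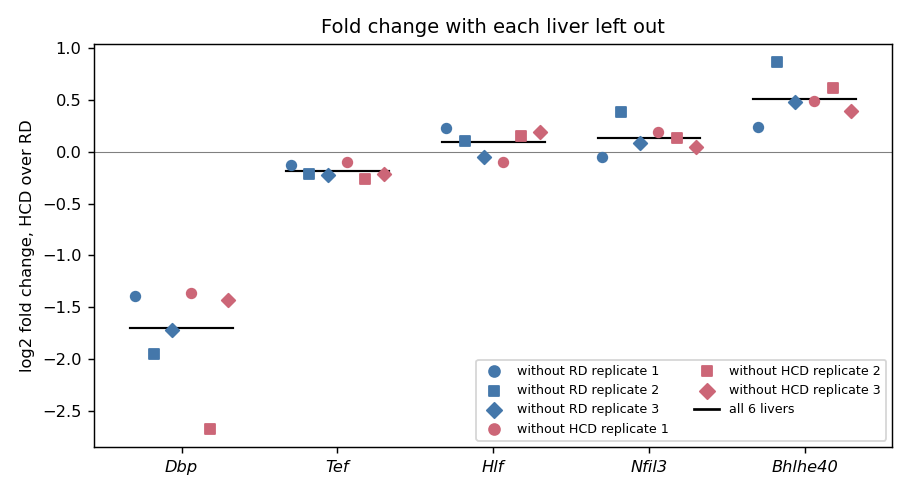
Log2 fold change of HCD over RD for the 5 tested members with all 6 livers (black line) and with each liver left out (points; blue for an RD liver and red for an HCD liver left out). Dbp stays between -2.67 and -1.36, Tef below 0 and Bhlhe40 above 0, while Hlf and Nfil3 cross 0.

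Tef (ENSMUSG00000022389, chr15:81802421-81826863, plus strand) encodes thyrotroph embryonic factor. Its level was 52.8, 47.5 and 46.6 CPM in the RD livers, in replicate order, and 37.6, 47.4 and 44.2 CPM in the HCD livers. The diets overlapped, and HCD replicate 1 was the lowest liver. The log2 fold change was -0.19 (standard error 0.14, 95% interval -0.50 to 0.13), with an adjusted p = 0.475 by edgeR. Without HCD replicate 1 it was -0.097.

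Hlf (ENSMUSG00000003949, chr11:90336536-90390895, minus strand) encodes hepatic leukemia factor, the remaining PAR-bZIP activator. It measured 44.1, 38.4 and 29.6 CPM in the RD livers and 49.6, 35.8 and 33.9 CPM in the HCD livers. HCD replicate 1 was highest and RD replicate 3 lowest, so that each diet spans most of the range of the other. Its log2 fold change of 0.092 (standard error 0.20, interval -0.37 to 0.55) had an adjusted p = 0.832 in edgeR's test. The sign turned without HCD replicate 1 (-0.100) and without RD replicate 3 (-0.056).

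Tef and Hlf therefore had intervals that leave out a log2 difference of 1 in either direction, whereas that of Dbp reaches from near 0 to below -3. The log2 ratio of Tef to Hlf counts was 0.258, 0.306 and 0.656 with RD and -0.401, 0.402 and 0.383 with HCD. HCD replicate 1 was the only liver with more Hlf than Tef counts.

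Nfil3 (ENSMUSG00000056749, chr13:52967209-52981073, minus strand) encodes the repressor of D-box genes. It measured 44.6, 80.7 and 56.7 CPM in the RD livers and 60.8, 65.1 and 72.9 CPM in the HCD livers. All HCD values lie between the lowest and the highest RD liver. The log2 fold change was 0.13 (standard error 0.21, interval -0.35 to 0.61, adjusted p = 0.768 in edgeR's test), without RD replicate 1 it was -0.056, and without HCD replicate 1 it was 0.19.

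Bhlhe40 (ENSMUSG00000030103, chr6:108660629-108666925, plus strand) encodes DEC1, a repressor that also answers to hypoxia, feeding and many hormones. It measured 27.7, 67.4 and 44.7 CPM with RD and 67.5, 55.2 and 75.7 CPM with HCD. RD replicates 1 and 3 were below every HCD liver, and RD replicate 2 was not. Means were 46.6 ± 19.9 CPM (SD, n = 3) and 66.1 ± 10.3, and the log2 fold change was 0.51 (standard error 0.29, interval -0.15 to 1.16, adjusted p = 0.356 in edgeR's test). It was 0.24 without RD replicate 1, 0.86 without RD replicate 2 and 0.49 without HCD replicate 1.

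Ciart (ENSMUSG00000038550, chr3:95878503-95882251, minus strand), whose promoter window has the E-box trio, was near the limit of detection. RD livers had 8, 5 and 19 counts of it, and HCD livers 0, 2 and 0 counts. These are 0.385, 0.349 and 0.825 CPM with RD and 0.138 CPM in HCD replicate 2. Every RD liver had more Ciart than every HCD liver, but the gene did not pass the filter on low counts. Diets also did not overlap for 27.6% of all genes tested. All HCD livers were below the 3 counts taken as the floor. By library total, without TMM factors, these are 0.162, 0.202 and 0.215 CPM in HCD replicates 1, 2 and 3. Over the pooled libraries of a diet, 32 counts with RD against 2 with HCD gave a ratio of 13.3 per library total, with an interval of 3.38 to 114 that covers counting error only and not the spread between livers. An exact two-sided permutation test gave p = 0.1, and edgeR without the filter gave an unadjusted p = 0.0444 and an adjusted p = 0.316. With the filter, 20.9% of all genes tested had an unadjusted p under 0.05 in edgeR. The unadjusted p was 0.0348 by DESeq2, which gave no adjusted p, and 0.0129 and 0.00844 by limma on log2 FPKM plus 1 and plus 0.1 (adjusted p = 0.201 and 0.159).

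Bhlhe41 (ENSMUSG00000030256, chr6:145858243-145865558, minus strand) encodes DEC2, the close relative of DEC1. It had 11, 4 and 5 counts in the RD livers and 0, 2 and 5 in the HCD livers, and the diets overlapped. The pooled 20 counts against 7 gave a ratio of 2.37 per library total of RD over HCD, with a counting interval of 0.962 to 6.63. A difference between diets was not detectable at this depth (adjusted p = 0.776 in edgeR without the filter).

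Ratios of members within a library do not depend on how libraries are scaled. The log2 ratio of Dbp to Nfil3 counts, the activator over the repressor of D-boxes, was -3.63, -5.65 and -4.47 in the RD livers and -7.23, -5.36 and -7.49 in the HCD livers. Means were -4.58 ± 1.02 (SD, n = 3) and -6.69 ± 1.16. The diets overlapped in this ratio, since HCD replicate 2 was above RD replicate 2. Against Arntl, whose RNA is known to peak at about the opposite time of day, the log2 ratio of Dbp counts was -2.35, -3.91 and -3.41 with RD and -6.07, -3.93 and -5.96 with HCD. Here RD replicate 2 and HCD replicate 2 were again nearly equal. The log2 ratio of Nfil3 to Bhlhe40 counts was 0.686, 0.260 and 0.344 with RD and -0.150, 0.239 and -0.055 with HCD.

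Other genes of the clock, both of the core loop and among its regulators, were compared as well and are called core clock genes here. Of the 17 core clock genes reported here, all tested, edgeR called 0 at an adjusted p under 0.05, and 7 fitted values were positive and 10 negative (median log2 fold change -0.054). Without HCD replicate 1 there were 9 positive and 8 negative (median 0.060). An unadjusted p under 0.05 in edgeR was reached by 4 higher and 4 lower genes of the 17 (11.1% and 9.81% of all genes tested), and the diets did not overlap in 9 of the 17 (27.6% of all genes tested). DESeq2 called 6 of the 17: Cry1, Npas2, Per1 and Tipin higher, and Nr1d2 and Per2 lower, where it called 7.47% of the same 13105 genes (4.13% higher and 3.34% lower). Without HCD replicate 1, edgeR called 3, with Per1 higher (1.95, adjusted p = 0.0297), Nr1d2 lower (-1.12, adjusted p = 0.0439) and Nr1d1 lower, and without RD replicate 3 it called Cry1 higher.

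Among the repressors of the core loop, Nr1d1 and Nr1d2 encode REV-ERB alpha and beta, which silence Arntl and Nfil3. Nr1d1 measured 53.6, 61.6 and 33.7 CPM with RD and 32.8, 8.13 and 9.81 CPM with HCD (log2 fold change -1.54, standard error 0.50, adjusted p = 0.132 in edgeR's test). HCD replicate 1 was the HCD liver with the highest Nr1d1, close to RD replicate 3, and without it the log2 fold change was -2.47 (adjusted p = 0.00934, edgeR). Nr1d2 measured 32.2, 32.5 and 40.0 CPM with RD and 22.1, 19.2 and 12.8 CPM with HCD, with a log2 fold change of -0.95 (adjusted p = 0.0522, edgeR). Like Dbp, both genes had no overlap between diets, but Dbp was lowest in HCD replicates 1 and 3 and Nr1d1 in HCD replicates 2 and 3.

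The Period genes, feedback repressors of CLOCK and BMAL1, did not share a direction. Per2 measured 17.0, 13.5 and 9.20 CPM with RD and 5.16, 6.69 and 6.97 CPM with HCD (log2 fold change -1.08, adjusted p = 0.0665, edgeR). Per1, which glucocorticoids also induce, measured 5.29, 4.05 and 9.51 CPM with RD and 11.4, 23.6 and 25.6 CPM with HCD (1.67, adjusted p = 0.0566, edgeR). For Per3 the log2 fold change was -0.57 with overlapping diets. The cryptochrome partners gave 0.86 for Cry1 (adjusted p = 0.138, edgeR) and -0.0099 for Cry2, whose sign turned under several settings.

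Of the activators, Npas2 measured 4.57, 5.09 and 9.33 CPM with RD and 10.4, 17.4 and 18.0 CPM with HCD (log2 fold change 1.26, adjusted p = 0.0797, edgeR). Clock gave -0.36 and Arntl 0.13, with Arntl at 18.4, 24.1 and 27.3 CPM with RD and 27.1, 24.1 and 25.2 CPM with HCD. Arntl thus stayed within a narrow range in 5 of 6 livers, with RD replicate 1 below. Tipin gave 1.21 (adjusted p = 0.0989, edgeR), and Rora, Csnk1d, Csnk1e, Fbxl21, Timeless and Btrc ranged from -0.67 to 0.50, none with an unadjusted p under 0.05.

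**Figure D4:**
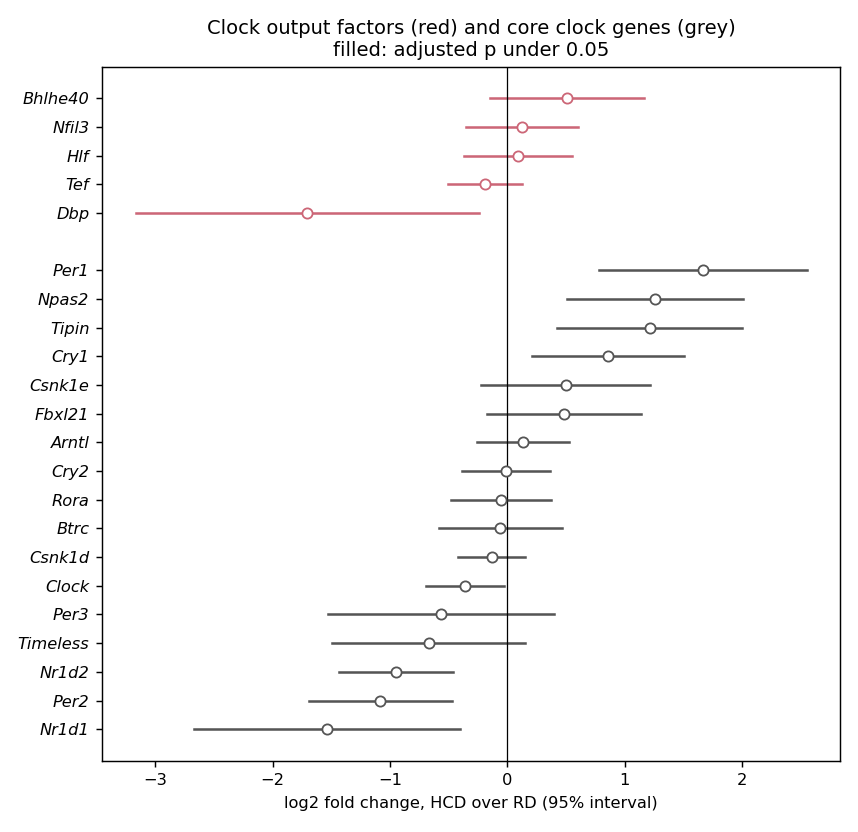
Log2 fold change of HCD over RD with its 95% interval for the 5 tested clock output factors (red) and 17 core clock genes (grey); a filled point would mark an adjusted p under 0.05. No point is filled, and Dbp, at -1.70 with an interval of -3.17 to -0.24, has the lowest value and the widest interval.

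**Figure D5:**
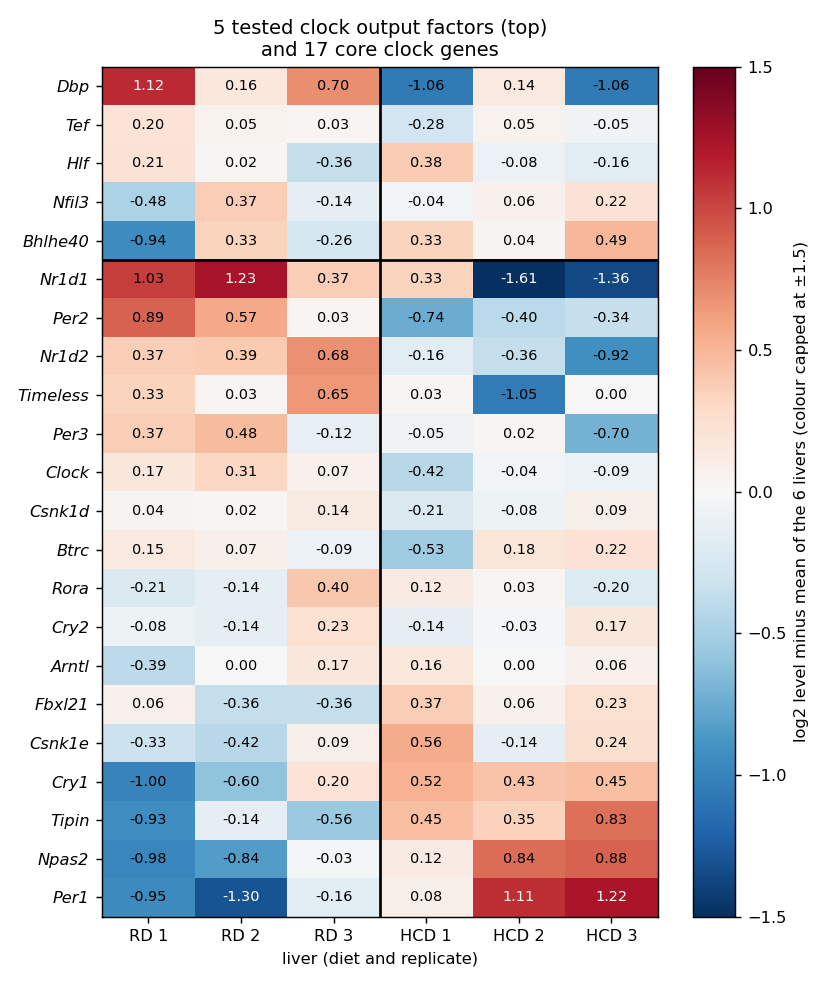
Log2 CPM (plus 0.5) of each liver minus the mean of the 6 livers for the tested clock output factors (top) and the core clock genes (below, by fold change), with blue for below and red for above the mean. Dbp is above 0 in all RD livers and in HCD replicate 2 (0.14), where Nr1d1 is at -1.61.

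Genes with the profile most like that of each member were sought among the 9113 tested genes that averaged 5 CPM or more. The measure was the root mean square difference of log2 deviations over the 6 livers, so that a smaller value is a closer profile, and it is a description without a test. Closest to Dbp were Lifr (0.208), Fkbp11 (0.297) and Gpr146 (0.310). Lifr, the receptor of leukemia inhibitory factor, was picked for a profile like that of Dbp, so a lower level with HCD follows from the choice. Its log2 fold change was -1.19 (adjusted p = 0.0462, edgeR). That call was lost without any 1 of RD replicates 1, 2 and 3 or HCD replicates 1 and 3. It was also lost under 6 of 11 other settings. Without HCD replicate 1 the Lifr log2 fold change was -1.09 (adjusted p = 0.0866, edgeR). Closest to Tef were Ecd (0.041), Mon1a (0.043) and Hfe2 (0.048), and closest to Hlf were Rpain (0.069), Mrpl47 (0.073) and Kif2a (0.088). For Nfil3 they were Rbms2 (0.080), Trim47 (0.105) and Bin1 (0.106), and for Bhlhe40 they were Ppp1r8 (0.182), Cd44 (0.195) and Plxnc1 (0.202). Between members the smallest value was 0.269, for Nfil3 and Bhlhe40, and the largest 1.26, for Dbp and Bhlhe40. Tef and Hlf, of the same family, differed by 0.320. The measure also grows with the spread of each gene, whose SD in log2 was 0.899 for Dbp, 0.161 for Tef and 0.265 for Hlf. A small value between genes that vary little need not mean that they move together. RD replicate 1 was the lowest liver for both Nfil3 and Bhlhe40 and the highest for Dbp and Tef.

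Genes known as targets of DBP, TEF and HLF in liver were compared as a list. Whether their values reflect these activators was not tested. Of 16 listed, 14 were tested, 4 rose, 1 fell and 9 did not pass (median log2 fold change 0.81, against 0.0074 over all genes tested), where 1.95% and 1.32% of all genes tested were called higher and lower. Cyp4a14 and Cyp4a10, fatty acid hydroxylases, gave 5.26 and 2.96 (adjusted p = 0.0474 and 0.0343, edgeR). Cyp2a5, the coumarin hydroxylase, gave 1.57 (adjusted p = 0.0124, edgeR). Cyp3a11, a drug-metabolizing enzyme that was added after its values were seen to complete the count, gave 1.06 (adjusted p = 0.0329, edgeR). Cyp7a1, the rate-limiting enzyme of bile acid synthesis, measured 109, 102 and 102 CPM with RD and 48.9, 30.0 and 13.7 CPM with HCD (-1.75, adjusted p = 0.0453, edgeR).

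The median over the 14 was 0.43 without HCD replicate 1. DESeq2 called 5 of the 14 higher and 1 lower, beside 4.13% and 3.34% of all genes. With a liver left out, the calls by edgeR over all genes went from 428 to between 36 and 335, and some of these 5 calls were lost too. Without HCD replicate 2, edgeR called Alas1, the first enzyme of haem synthesis, lower (-2.01, adjusted p = 0.0252) and Cyp2b10 higher (4.08, adjusted p = 0.0243), both named after their values were seen. Cyp2a5 lost its call without RD replicate 1 or 2, Cyp3a11 without RD replicate 1 or 2 or HCD replicate 2 or 3, Cyp7a1 without any RD liver or without HCD replicate 2, and Cyp4a10 and Cyp4a14 without any RD liver or without HCD replicate 3. The log2 fold changes over these subsets were 1.39 to 1.74 for Cyp2a5, 0.94 to 1.24 for Cyp3a11 and -2.25 to -1.41 for Cyp7a1, where -2.25 is the value without HCD replicate 1. With all 6 livers, other settings also ended calls: 7 of 10 for Cyp4a14, 6 of 11 for Cyp7a1, 4 of 11 each for Cyp4a10 and Cyp3a11, and 1 of 11 for Cyp2a5. HCD replicate 1 had 2054 CPM of Cyp4a14 against 202 and 201 in the other HCD livers, and 853 CPM of Cyp4a10 against 174 and 231. Without it the log2 fold changes were 3.24 and 1.91, both still called (adjusted p = 0.0427 and 0.00828, edgeR). HCD replicate 1, the only library with Xist counts, had 445 CPM of Cyp2b9 and 657 CPM of Cyp2a4. Both were at 0 to 5.64 CPM in the other livers, did not pass the filter and were named after their values were seen. The part of sex in these values was not tested. The Cyp2a, Cyp2b, Cyp3a and Cyp4a genes have near-identical copies that can share reads, so the values of single genes are uncertain.

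Other gene groups around the clock showed few calls by edgeR at an adjusted p under 0.05 with all 6 livers. Of 17 other clock output genes, 16 were tested and none was called by edgeR or DESeq2, and 5, all of them higher, had an unadjusted p under 0.05 in edgeR (median log2 fold change 0.18), where 11.1% of all genes tested were higher at that threshold. Without HCD replicate 1, edgeR called Cdkn1a of this list, a cell cycle inhibitor named here after its values were seen (2.24, adjusted p = 0.00304). Nampt, the enzyme of NAD salvage, gave 0.48 (adjusted p = 0.0795, edgeR), and Rgs16, a regulator of G protein signalling, measured 1.06, 3.07 and 0.130 CPM with RD and 32.6, 1.03 and 26.6 CPM with HCD (3.92, adjusted p = 0.110, edgeR). EdgeR called Rgs16 without HCD replicate 2 (4.48, adjusted p = 0.0388) and without the filter on low counts (3.90, adjusted p = 0.0269). Rgs16 was high in HCD replicates 1 and 3, the livers in which Dbp was lowest. Of 22 other bZIP factors, 21 were tested and edgeR called only Jund, which was higher (0.65, adjusted p = 0.0490), beside 3.27% of all genes tested, and that call was lost without any 1 of the 6 livers, at log2 fold changes of 0.53 to 0.72 (0.62 without HCD replicate 1, adjusted p = 0.0854), and under 6 of 11 other settings. DESeq2 called 3 of the 21 higher and 1 lower, beside 4.13% and 3.34% of all genes. EdgeR called Cebpb without HCD replicate 1 (1.31, adjusted p = 0.0212) and Fos without HCD replicate 2 (2.19, adjusted p = 0.0456), both also named after their values were seen. Of 9 glucocorticoid-inducible genes, 8 were tested and none was called by edgeR. DESeq2 called 2 of them, both higher, beside 4.13% of all genes. Per1 and Tsc22d3 (1.24, adjusted p = 0.0958, edgeR) passed an unadjusted p of 0.05 in edgeR. Tsc22d3 was called without the filter on low counts (adjusted p = 0.0280, edgeR), and without HCD replicate 3 its log2 fold change was 0.70 (adjusted p = 0.155, edgeR).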

How the data were processed

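RNA sequencing of 6 livers, 3 with RD and 3 with HCD, was used, with groups taken from the sample labels. The authors deposited whole-number counts per gene without normalization. The deposited FPKM are scaled by gene length and a library total that is 59.0% to 72.6% of the counts. The submitters' processing notes name STAR, HTSeq, DESeq2, edgeR and GRCm39, with no role or version. Exon lengths of GENCODE M21 (GRCm38) gave the same FPKM total, within 0.1%, for 95.5% to 95.9% of genes, so positions are given on GRCm38. The deposited log2 fold changes and p-values were not used.

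Counts were tested in R 4.3.3 with edgeR 4.0.16 (filterByExpr by diet, TMM factors 0.886 to 1.07, quasi-likelihood test without covariates, two-sided), which left 13105 genes, adjusted by Benjamini-Hochberg over all of them. Calls are at an adjusted p under 0.05, and the common biological coefficient of variation was 27.8%. Same-diet libraries differed by more than counting noise (chi-square per degree of freedom 27.7 to 143). Levels are TMM-scaled CPM, and depth was 13771630 to 23129576 counts. Intervals of pooled counts are 95% and exact. Alternatives were DESeq2 1.42.0, limma 3.58.1 on log2 FPKM plus 1 or 0.1, other scalings and filters, a gene length correction (loess, span 0.5), a replicate block, other thresholds and each liver left out.

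The members and gene lists were chosen with earlier results of these data known. Genes named are all members, the core clock genes (a few items of this list are not reported here), the called genes of each other list (at most 3 rises and 3 falls, or where none is called the 2 with the smallest p), apart from cell type lists, which are given as sums, and the 3 genes most like each tested member. List genes outside this rule are marked in the text as named after their values were seen. Figures were drawn with matplotlib 3.10.9.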

Additional observations from a re-analysis of the deposited data

How the results depend on the processing

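For the 5 tested members, 81 of 84 alternative values kept their sign and their side of the threshold, with a smallest adjusted p of 0.0721 (Dbp, edgeR). Hlf turned to -0.056 when RD replicate 3 was left out and to -0.100 without HCD replicate 1, and Nfil3 to -0.056 without RD replicate 1. No member was called under any alternative fit. In the chosen fit 1, Dbp, passed an unadjusted p of 0.05, as did 20.9% of all genes tested. Ciart, which that fit did not test, passed it in the 4 alternatives that tested it. Dbp could not be fitted with a mean of at least 50 counts, and Ciart and Bhlhe41 were tested only without the filter, by DESeq2 and in FPKM. Leaving out each liver gave -2.67 to -1.36 for Dbp, -0.27 to -0.097 for Tef, -0.10 to 0.23 for Hlf, -0.056 to 0.38 for Nfil3 and 0.24 to 0.86 for Bhlhe40. With the length trend removed the values were -1.73 for Dbp, -0.069 for Tef, 0.19 for Hlf, 0.023 for Nfil3 and 0.57 for Bhlhe40. On log2 FPKM plus 1 the Dbp difference was -0.71, since the added 1 exceeds most Dbp values.

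Of the 17 core clock genes, 0 were called in the chosen fit, 6 by DESeq2, 5 without the filter on low counts, 8 at an unadjusted p under 0.05, 5 at an adjusted p under 0.1 and 0 to 3 with a liver left out (1 without RD replicate 3, 3 without HCD replicate 1). Signs turned for Arntl without RD replicate 1 (-0.016), for Btrc with the length trend removed (0.14), with block and length trend (0.093) and without HCD replicate 1 (0.16), for Cry2 with upper-quartile factors (0.021), a mean of at least 50 counts (0.0068), FPKM plus 1 or 0.1 (0.016 and 0.019), the length trend (0.092), block and length trend (0.094), without RD replicate 3 (0.11) or HCD replicate 1 (0.060), and for Rora with the length trend (0.10), block and length trend (0.13), without RD replicate 3 (0.17) or HCD replicate 3 (0.025). With a liver left out, Arntl ranged from -0.016 to 0.26, Btrc from -0.20 to 0.16, Cry2 from -0.11 to 0.11 and Rora from -0.17 to 0.17. Clock was at -0.36 in the chosen fit and at -0.19 with the length trend removed. The cause of these shifts was not tested.

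Over all genes, 428 were called in the chosen fit, 995 by DESeq2, 649 without the filter, 128 and 199 on log2 FPKM plus 1 and 0.1, 256 with the length trend removed, 2739 at an unadjusted p under 0.05, 980 at an adjusted p under 0.1 and 36 to 335 with a liver left out (36, 51 and 146 without RD replicates 1, 2 and 3, and 103 without HCD replicate 3). The labels do not say that replicate numbers pair livers across diets. Same-numbered livers correlated at -0.076, 0.088 and -0.041 in their deviations, and differently numbered livers at -0.107 to 0.133. As these ranges overlap, the values cannot show whether livers were paired. A replicate block gave 136 called genes, or 96 with the length trend removed as well, no called member and a Dbp log2 fold change of -1.89. Calls were lost on log2 FPKM plus 1 for Cyp2a5, on log2 FPKM plus 1 or 0.1 and with the block for Cyp4a10, Cyp4a14, Cyp3a11, Cyp7a1, Jund and Lifr, with library sizes alone for Cyp4a14, Cyp7a1, Jund and Lifr, with the length trend removed for Cyp4a14, Jund and Lifr, with upper-quartile factors for Cyp7a1 and with a mean of at least 50 counts for Cyp4a14, at adjusted p up to 0.193. DESeq2 gave no adjusted p for Cyp4a14. Ratios from FPKM gave the same differences as from counts. Depth left Ciart and Bhlhe41 under the filter on low counts.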
